A study of Danio rerio with 4 samples.

Results

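The genes followed here encode plasma proteins of the acute phase that the liver makes: the alpha-2-macroglobulin gene a2ml, the C-reactive protein genes crp2 and crp3, the serum amyloid P gene apcs and the serum amyloid A gene saa2. They were chosen by symbol and matched to the Ensembl gene IDs of the deposited expression table, which gave 5 genes of the 33737 listed. The IDs were ENSDARG00000056314 for a2ml, ENSDARG00000056462 for crp2, ENSDARG00000042613 for crp3, ENSDARG00000045089 for apcs and ENSDARG00000045999 for saa2. A mean RPKM (reads divided by gene length and by library size) of at least 1 over the libraries was met by 4 of the 5, all but crp2, and by 11135 genes in all. The serum amyloid A gene reached that mean through the mutant library at 7.5 dpf alone.

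Hepatocytes came from zebrafish larvae of the strain labelled ABGO, either wild type or zc3h8-/-, at 5.5 or 7.5 days post fertilization (dpf). All 4 groups carried the transgene Tg(lfabp:Dendra2-NTR), in which a liver fatty acid binding protein promoter drives a fusion of the fluorescent protein Dendra2 and nitroreductase. Livers were dissected, dissociated with trypsin and sorted by flow cytometry, and cDNA was amplified with the Smart-seq2 protocol, which reads full-length transcripts. Each group had 1 library, and the sources used here do not give how many larvae went into it. There was thus no replicate check of any difference between 2 libraries, and intervals below cover counting error only. Reads from amplified cDNA without molecular identifiers are not independent molecules.

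In the acute phase response, injury or infection changes the set of proteins that hepatocytes secrete into plasma. Cytokines of the interleukin-6 family act on hepatocytes through the transcription factor STAT3, and interleukin-1 and tumor necrosis factor act through NF-kappaB and C/EBP factors. Pentraxins, such as C-reactive protein and serum amyloid P, are ring-shaped proteins that bind microbial surfaces and cell debris, serum amyloid A is an apolipoprotein of high density lipoprotein, and alpha-2-macroglobulin traps proteases. Which of these is the major acute phase protein differs between species of mammals.

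The libraries held 29649005 to 36999967 counted reads. All 10 hepatocyte markers were above 0 in each library, and their summed RPKM was 79480 in wild type and 41590 in mutant at 5.5 dpf, and 57810 and 19340 at 7.5 dpf. Summed markers of other cells, in the same order, were 9.546, 18.61, 3.26 and 117.6 for neutrophils and 4.577, 26.12, 11.4 and 157.8 for macrophages. They were 328.5, 466.1, 548.8 and 1263 for biliary and stellate cells, 2384, 1248, 1354 and 607.7 for intestine, and 453.6, 45.49, 1824 and 506.3 for exocrine pancreas. Most of the intestine sum was apoa4b.1, an apolipoprotein gene, at 2329, 1213, 1307 and 582.0 RPKM. The keratin gene krt18a.1 held 814.8 of the 1263 for biliary and stellate cells. These sums are therefore not amounts of the cells named. The targeted gene zc3h8 had no matching ID, and the genotype labels were therefore not checked against its level.

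The alpha-2-macroglobulin gene and crp3 were lower in the mutant than in the wild-type library at both stages, by similar folds, and both were lower at 7.5 than at 5.5 dpf. The expression of a2ml was 243.5 RPKM in wild type and 59.5 in mutant at 5.5 dpf, and 122.9 and 15.1 at 7.5 dpf, from 39721, 9809, 20632 and 2031 reads. It ranked 339th among all genes in wild type at 5.5 dpf and 4007th in mutant at 7.5 dpf. The level was thus lowest in the older mutant library and highest in the younger wild-type library. In the mutant a2ml was 4.09-fold lower at 5.5 dpf (95% exact counting interval 4.00 to 4.19) and 8.14-fold lower at 7.5 dpf (7.78 to 8.52). Between stages it was 1.98-fold lower at 7.5 dpf in wild type (1.95 to 2.02) and 3.94-fold lower in mutant (3.76 to 4.13). In bulk RNA, fewer cells that express a gene and less RNA of it per cell cannot be told apart.

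The pentraxin gene crp3 stood at 183.5 RPKM in wild type and 41.1 in mutant at 5.5 dpf, and at 91.5 and 10.5 at 7.5 dpf, from 5233, 1184, 2685 and 248 reads. Its order over the libraries was the same as that of a2ml. In the mutant it was 4.47-fold lower at 5.5 dpf (4.19 to 4.76) and 8.68-fold lower at 7.5 dpf (7.62 to 9.92). At 7.5 dpf it was 2.01-fold lower than at 5.5 dpf in wild type (1.91 to 2.1) and 3.89-fold lower in mutant (3.39 to 4.48). On the level scale per length, crp3 had 0.754 of the RPKM of a2ml in wild type and 0.691 in mutant at 5.5 dpf, and 0.745 and 0.699 at 7.5 dpf. The counting interval of this ratio was 0.732 to 0.776 in wild type and 0.650 to 0.734 in mutant at 5.5 dpf. At 7.5 dpf it was 0.715 to 0.775 and 0.610 to 0.797. The intervals of the genotypes overlapped at 7.5 dpf, and at 5.5 dpf only from 0.732 to 0.734. The fold intervals at 5.5 dpf, 4.004 to 4.186 lower in the mutant for a2ml and 4.194 to 4.763 for crp3, did not overlap.

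The summed RPKM of the hepatocyte markers was also lower in the mutant at both stages. All of these markers but fabp10a and hpda are themselves on the positive or negative acute phase lists used below, so their sum is not a reference apart from such genes. Set against their summed RPKM, a2ml came to 3.06 per 1000 in wild type and 1.43 in mutant at 5.5 dpf, and to 2.13 and 0.781 at 7.5 dpf. The same measure for crp3 was 2.31 and 0.988 at 5.5 dpf, and 1.58 and 0.545 at 7.5 dpf. Both genes were thus lower in the mutant relative to this marker sum too. In wild type at 5.5 dpf, apoa2 and fabp10a held 42933 and 20244 of its 79480 RPKM. Single markers varied in the mutant against wild type, from tfa (−1.91 at 5.5 and −2.81 at 7.5 dpf as differences of log2(RPKM + 1)) to fgb (0.42 and −0.75).

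**Figure D1:**
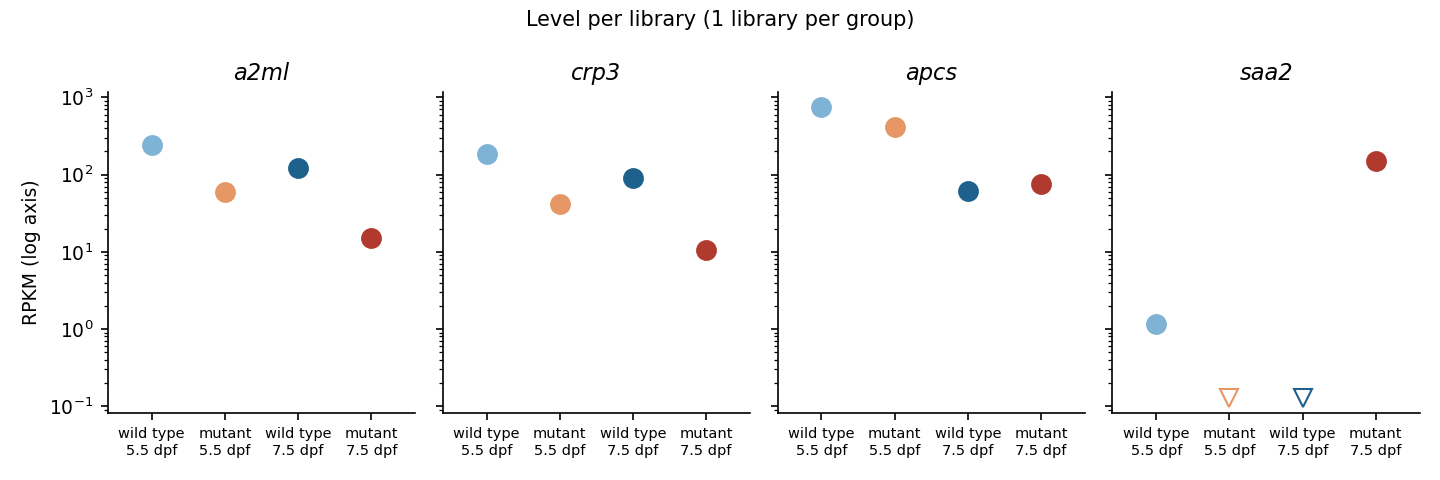
RPKM of a2ml, crp3, apcs and saa2 in each of the 4 libraries, on a log axis, with 1 point per library. Open triangles mark the level of 3 reads for a library with 0 reads; a2ml and crp3 lie lowest in the mutant at 7.5 dpf, at 15.1 and 10.5 RPKM, where saa2 stands at 147.9.

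The serum amyloid P gene apcs differed chiefly between stages. It was the most abundant of the 5 genes at 5.5 dpf, with 760.0 RPKM in wild type and 411.8 in mutant, and it stood at 61.8 and 75.5 at 7.5 dpf, from 22903, 12546, 1915 and 1876 reads. Both libraries at 5.5 dpf were above both at 7.5 dpf. At 7.5 dpf apcs was 12.3-fold lower than at 5.5 dpf in wild type (11.7 to 12.9) and 5.45-fold lower in mutant (5.20 to 5.73). In the mutant it was 1.85-fold lower at 5.5 dpf (1.81 to 1.89), short of 2-fold, with a log2 difference of −0.88 that became −1.19 under the scaling named next. At 7.5 dpf it was 1.22-fold higher (1.15 to 1.30), a log2 difference of 0.29 that turned to −0.14 under median-ratio scaling, which divides each library by the median ratio of its genes to their geometric means. Per 1000 RPKM of the hepatocyte markers, apcs came to 9.56 in wild type and 9.90 in mutant at 5.5 dpf, and to 1.07 and 3.90 at 7.5 dpf.

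The level of apcs relative to a2ml changed from library to library. It had 3.12 times the RPKM of a2ml in wild type and 6.92 times in mutant at 5.5 dpf, and 0.503 and 5.00 times at 7.5 dpf. Relative to crp3, a gene of the same pentraxin family, the values were 4.14 in wild type at 5.5 dpf, and 0.675 in wild type and 7.16 in mutant at 7.5 dpf, with the highest, 9.45 to 10.7 by its counting interval, in mutant at 5.5 dpf. In wild type at 7.5 dpf apcs was thus below both genes, and in the other 3 libraries it was above them.

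The serum amyloid A gene saa2 was near or at 0 in 3 libraries and abundant in the fourth. It stood at 1.17 RPKM in wild type (27 reads) and 0 in mutant at 5.5 dpf, and at 0 in wild type and 147.9 in mutant at 7.5 dpf (2806 reads). A library at 0 reads allows up to 3 reads, which is 0.129 RPKM in mutant at 5.5 dpf and 0.127 in wild type at 7.5 dpf. Against that limit, saa2 was at least 1167-fold higher in the mutant than in wild type at 7.5 dpf and at least 1147-fold higher than in the mutant at 5.5 dpf. At 5.5 dpf it was at least 9.10-fold lower in the mutant, and wild type was at least 9.26-fold lower at 7.5 than at 5.5 dpf, both from the 27 reads of 1 library. These limits cover counting error alone, and 0 reads were common. Of the 11135 tested genes, 3505 had 0 reads in wild type at 7.5 dpf and 2656 in mutant at 5.5 dpf. In the mutant at 7.5 dpf, saa2 had 9.79 times the RPKM of a2ml (9.25 to 10.4) and 1.96 times that of apcs (1.85 to 2.08), and ranked 582nd among all genes.

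The library that held saa2 was also the one with the highest summed neutrophil and macrophage markers, 117.6 and 157.8 RPKM. Of the 8 neutrophil marker IDs, 3 were above 0 there, ncf1 (51.6 RPKM), mmp13a (43.4) and mmp9 (22.6), and the neutrophil sum rested on these alone. The markers npsn, cxcr1, csf3r and lyz, the last of which encodes lysozyme, were at 0. The level of lyz was 9.55 RPKM in wild type at 5.5 dpf. Of the 10 macrophage marker IDs, 9 were above 0, among them the scavenger receptor gene marco at 58.2 RPKM. Several of these IDs share the symbol mfap4, at 0.383 to 20.9 RPKM in that library, so the 9 stand for fewer symbols. Of the 10 macrophage symbols chosen, 5 had no ID. The part of these cells in the saa2 level was not tested. Of the 11135 genes tested, 602 (5.41%) had 3 reads or fewer in each of the libraries other than the mutant at 7.5 dpf. The same count was 325 (2.92%) for wild type and 326 (2.93%) for mutant at 5.5 dpf, and 245 (2.2%) for wild type at 7.5 dpf. With 27 reads in wild type at 5.5 dpf, saa2 itself was not among the 602.

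The C-reactive protein gene crp2 was listed at 0 in all 4 libraries, and so were crp1, crp6 and crp7, 4 of the 6 crp genes with an ID. Of all genes listed, 15817 (46.9%) were at 0 in every library, and 2 of 79 ribosomal protein symbols were among them. In the RefSeq annotation of GRCz12tu, crp2 lies between crp1 and crp3, and crp3 between crp2 and crp4. Genes in such a run can be near-identical copies whose reads a counting step may split or drop, so values of single crp genes are uncertain.

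The other genes of these families were looked up in the authors' annotation after the values were seen. It names 6 genes alpha-2-macroglobulin, and at 5.5 dpf all 6 were past 2-fold lower in the mutant, where 25.6% of all tested genes were. At 7.5 dpf 5 of the 6 were, where 23.1% of all tested genes were, and the sixth, si:ch211-212c13.10, had 0 and 1 reads at that stage. That gene met the filter on mean RPKM only with wild type at 5.5 dpf (13.3 RPKM), so its place among those lower at 5.5 dpf followed from the filter. The median log2 difference of the 6 was −2.06 at 5.5 dpf and −3.50 at 7.5 dpf, beside 0.00 and 0.33 for all tested genes. Summed over the 6, RPKM was 545.8 in wild type and 144.8 in mutant at 5.5 dpf, and 331.2 and 30.3 at 7.5 dpf. In summed reads the mutant was 3.78-fold lower at 5.5 dpf (3.72 to 3.83) and 10.8-fold lower at 7.5 dpf (10.4 to 11.1). The share of a2ml in the summed RPKM was 44.6 and 41.1% at 5.5 dpf and 37.1 and 49.8% at 7.5 dpf.

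The 5 other alpha-2-macroglobulin genes varied in how low they were in the mutant at 7.5 dpf. The gene si:dkey-52d15.3 stood at 81.6 RPKM in wild type and 34.4 in mutant at 5.5 dpf, and at 87.1 and 12.4 at 7.5 dpf, 7.01-fold lower in the older mutant (6.66 to 7.39). The gene si:ch211-212c13.8 was at 96.4 and 29.6 at 5.5 dpf, and at 62.6 and 2.81 at 7.5 dpf, 22.2-fold lower (20.0 to 24.8). The genes zmp:0000000609 and ENSDARG00000077872, the latter with no symbol, were at 0 in the mutant at 7.5 dpf, against 28.5 and 30.2 RPKM in wild type. By counting error alone, this is at least 1259-fold and at least 1239-fold lower. Of all tested genes, 2205 had 0 reads in the mutant at 7.5 dpf. Related genes can share reads, and the sources used here do not say how the authors' counting shared reads among them. The 3 genes annotated as alpha-2-macroglobulin-like protein 1 were below a mean RPKM of 1.

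Among genes that the authors annotate as pentraxin fusion protein, crp3 and crp5 were lower in the mutant and the remaining one was higher. The level of crp5 was 10.2 RPKM in wild type and 2.31 in mutant at 5.5 dpf, and 12.2 and 2.67 at 7.5 dpf. It was 4.4-fold lower in the mutant at 5.5 dpf (3.39 to 5.78) and 4.57-fold lower at 7.5 dpf (3.52 to 6.02), and its counting interval between stages in the mutant, 0.816 to 1.64 as a ratio, spanned 1. The gene ENSDARG00000093671, which has no symbol, was at 16.5 RPKM in wild type and 54.6 in mutant at 5.5 dpf, and at 5.61 and 18.4 at 7.5 dpf. It was 3.32-fold higher in the mutant at 5.5 dpf (2.97 to 3.71) and 3.28-fold higher at 7.5 dpf (2.70 to 3.99). In both genotypes it was lower at 7.5 dpf, by 2.93-fold in wild type (2.43 to 3.56) and 2.97-fold in mutant (2.65 to 3.33).

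**Figure D2:**
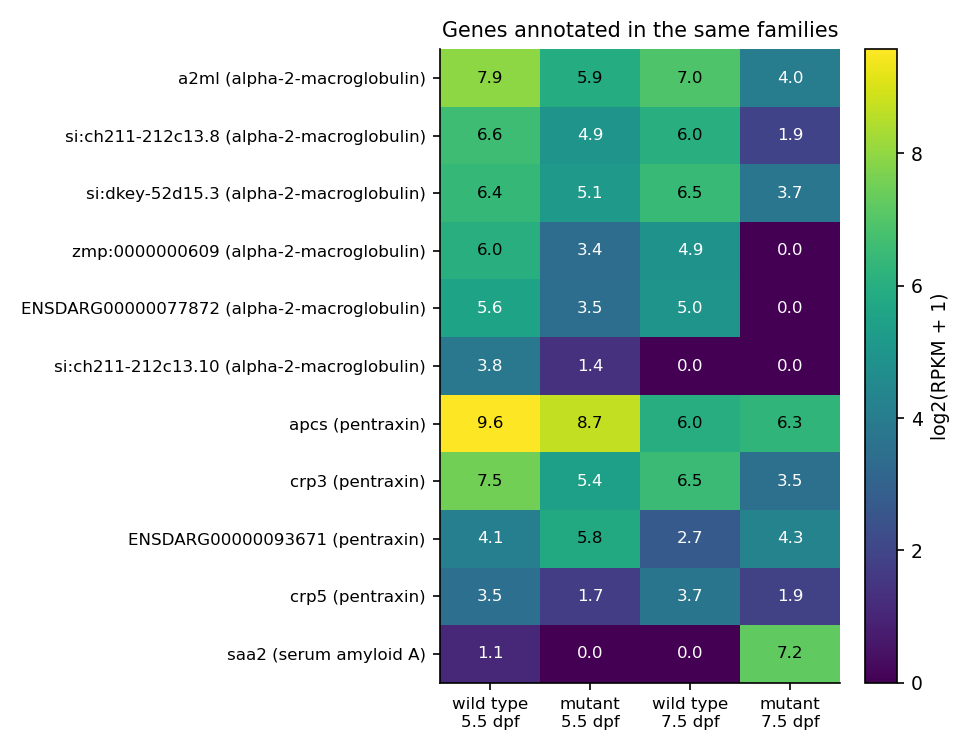
Heat map of log2(RPKM + 1) for 11 genes of the pentraxin, serum amyloid A and alpha-2-macroglobulin families (rows) in the 4 libraries (columns). Colour runs from dark (0) to yellow (high); 5 of the 6 alpha-2-macroglobulin rows are darkest in the mutant at 7.5 dpf (si:ch211-212c13.10 is at 0 and 1 reads in the 2 libraries of that stage), where saa2 reaches 147.9 RPKM and zmp:0000000609 is at 0.

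Differences were also taken on the log2(RPKM + 1) scale, on which low genes appear to change less than they do, and read against a rule of 2-fold size. In the mutant against wild type at 5.5 dpf, 3 of the 4 members tested were past 2-fold lower, a2ml (−2.02), crp3 (−2.13) and saa2 (−1.12). Of all tested genes 25.6% were past it in that direction, 28.0% in the other and 53.6% in either. At 7.5 dpf 2 members were past 2-fold lower, a2ml (−2.94) and crp3 (−3.00), beside 23.1% of all genes, and 1 was higher, saa2 (7.22), beside 40.0% of all genes, with 63.1% past it in either direction. The median difference of all tested genes at 7.5 dpf was 0.33, and it was 0.03 under median-ratio scaling, under which a2ml, crp3 and saa2 kept their direction. Between stages in wild type, apcs (−3.60) and saa2 (−1.12) were past 2-fold lower, and crp3 (−0.996) and a2ml (−0.98) lay just short of it. Of all genes 30.1% were lower, 21.4% higher and 51.5% past the rule in either direction. In the mutant, 3 members were past 2-fold lower at 7.5 dpf, a2ml (−1.91), crp3 (−1.87) and apcs (−2.43), beside 26.2% of all genes, and 1 was higher, saa2 (7.22), beside 33.8%, with 60.0% in either direction. The 4 comparisons share libraries, so that these counts are not independent of each other. As given above, saa2 was tested only because of the mutant library at 7.5 dpf, so its place among the higher genes followed from the filter. Its calls as lower rested on 27 reads in wild type at 5.5 dpf.

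**Figure D3:**
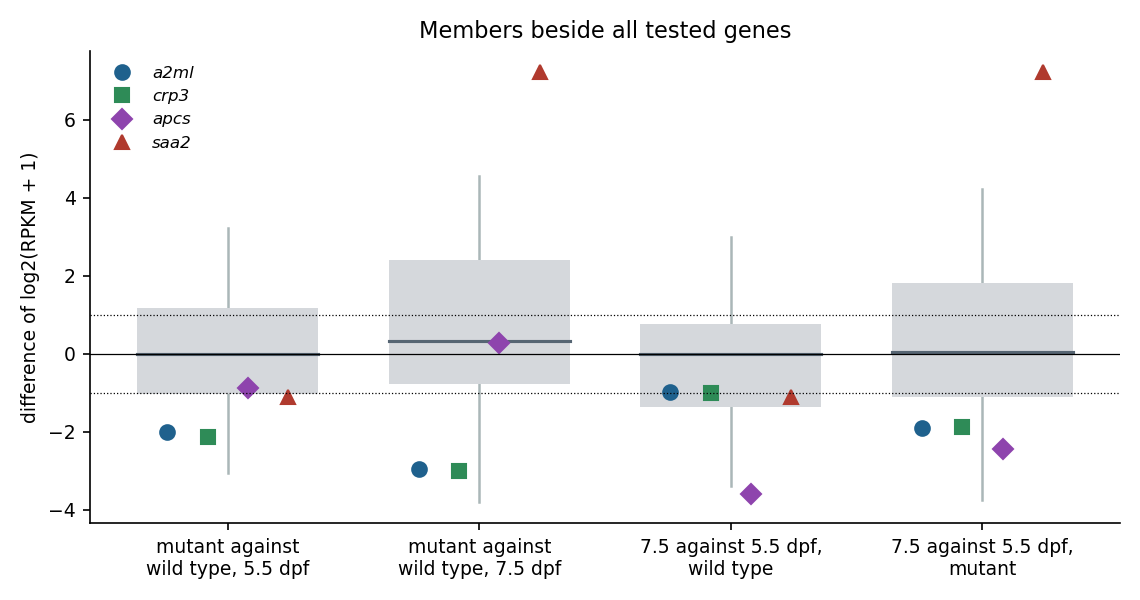
Difference of log2(RPKM + 1) of a2ml, crp3, apcs and saa2 (points) in the 4 comparisons. Grey boxes span the quartiles and lines the 5th to 95th percentile of the 11135 tested genes, with a bar at their median and dotted lines at 2-fold; saa2 at 7.22 lies beyond the line at 7.5 dpf, and apcs at −3.60 beyond that between wild-type stages.

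An additive fit of genotype and stage over the 4 libraries gave the tests that the design allows. With limma on log2(RPKM + 1), genotype passed an adjusted p of 0.05 for 244 genes (2.19% of those tested), a2ml among them. The genotype difference of a2ml was −2.48 (SE 0.71, adjusted p = 0.0289), and it was lower in the mutant at 2 of 2 stages. That of crp3 was −2.57 (limma, SE 0.79, adjusted p = 0.051), lower at 2 of 2 stages, and did not pass. Stage passed for 95 genes (0.853%), apcs among them, with a difference of −3.02 between 7.5 and 5.5 dpf (limma, SE 0.52, adjusted p = 5.51e-06), lower at 7.5 dpf in 2 of 2 genotypes. Neither term passed for saa2, whose genotype and stage differences were both 3.05 (limma, SE 1.64, adjusted p = 0.515 and 0.724). These values average opposite signs. In the mutant saa2 was lower at 5.5 dpf (−1.12) and higher at 7.5 dpf (7.22), and between stages it was lower in wild type and higher in mutant. The fit left 1 residual degree of freedom, so that its spread came from the trend across genes and the change of a genotype difference between stages could not be tested. With edgeR's quasi-likelihood test on recovered reads no gene passed for genotype or stage (342 and 203 genes at an unadjusted p below 0.05), while DESeq2 called 815 (7.32%) and 532 (4.78%). The adjusted p of a2ml for genotype was 0.000115 with DESeq2 and 1 with edgeR, and that of apcs for stage 0.00106 and 1. Over all alternatives of the fit, limma's other settings included, the adjusted p ran from 0.000115 to 1 for a2ml and from 4.59e-06 to 1 for apcs. With limma the a2ml call was lost with a pseudocount of 0.1 (adjusted p = 0.272), and the calls of both genes with a mean RPKM of at least 10 (adjusted p = 0.0799 and 0.0786).

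Genes whose profile over the 4 libraries was most like each member were found among 3561 genes with a symbol and a mean RPKM of at least 10, by the largest deviation of log2(RPKM + 1), centred on each gene's mean. The nearest to a2ml was crp3, with a largest deviation of 0.07, followed by QSOX1 (0.18), which encodes a sulfhydryl oxidase, and ISOC2 (0.20). The nearest to crp3 were in turn a2ml, QSOX1 (0.23) and ISOC2 (0.23). The genes nearest to apcs were GLTP (0.19), which encodes a glycolipid transfer protein, H6PD (0.42), a hexose-6-phosphate dehydrogenase, and msrb2 (0.58), a methionine sulfoxide reductase. Those nearest to saa2 were il11a (0.56), an interleukin-11 cytokine gene, the ubiquitin-like gene isg15 (0.60) and UCMA (0.64). All 3 were at 0 in the other libraries and at 67.4, 75.8 and 62.4 RPKM in the mutant at 7.5 dpf. With 4 libraries such likeness is a description only.

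Genes on a list of other positive acute phase proteins, a class that rises in plasma in the response, were more often past 2-fold lower than higher in the mutant at 7.5 dpf. Of the 35 symbols on this list, 9 had no ID, hamp, lbp and lcn2 among them, and hp was below a mean RPKM of 1. The list was broad, and not every gene on it encodes a plasma protein that rises. It held serpinc1, itih2 and ambp (−1.59, −1.39 and −1.58 at 7.5 dpf) as well as acod1 and steap4 (2.19 and 2.28). Of 23 tested genes, 0 were past 2-fold higher and 7 lower at 5.5 dpf, and 4 higher and 13 lower at 7.5 dpf, with medians of −0.41 and −1.21. Of all tested genes, 28.0% were higher and 25.6% lower at 5.5 dpf, near the share of the list that was lower, and 40.0% higher and 23.1% lower at 7.5 dpf, with medians of 0.00 and 0.33. The antitrypsin gene serpina1l stood at 3634 RPKM in wild type and 2742 in mutant at 5.5 dpf, and at 2093 and 906.3 at 7.5 dpf, 2.31-fold lower in the older mutant. The fibrinogen chain gene fgg was at 1990 and 2921 at 5.5 dpf, and 1283 and 649.0 at 7.5 dpf. The complement gene c3b.1 was at 42.3 and 8.79 at 5.5 dpf and at 36.1 and 0.0116 at 7.5 dpf, a ratio of 0.000322 that rested on 2 reads in the mutant (3.90e-05 to 0.00116). Its relative c3a.2 was 5.64-fold lower in the mutant at 5.5 dpf and 4.75-fold higher at 7.5 dpf, and the factor B-like gene cfbl had reads in the mutant at 7.5 dpf alone (14.6 RPKM, at least 463-fold higher). The filter on mean RPKM was thus met by cfbl through that library alone. The gene hpxa, counted as lower at 5.5 dpf, met it through wild type at 5.5 dpf alone (6.16 RPKM, and 0 in each other library).

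Negative acute phase proteins, which fall in plasma in the response, were also more often past 2-fold lower than higher in the mutant. Of the 14 symbols on this list, 3 had no ID. Of 10 tested genes, 1 was past 2-fold higher and 6 lower at 5.5 dpf, and 1 higher and 9 lower at 7.5 dpf, with medians of −1.67 and −2.41. The gene igfals, counted as lower at both stages, met the filter on mean RPKM through the wild-type libraries alone. The gene counted as higher, apoa1a, met it only with the mutant libraries. Their places in these counts thus followed from the filter. The shares of all tested genes that were lower were 25.6 and 23.1%, and those higher 28.0 and 40.0%, with medians of 0.00 and 0.33. The transferrin gene tfa was 7.01-fold lower at 7.5 dpf (474.3 against 3322 RPKM), the fetuin gene fetub 10.9-fold (1857 against 20186) and ahsg2, another fetuin, 345-fold (1.77 against 609.0). The member that was higher at both stages was apoa1a, an apolipoprotein gene, at 2.60 RPKM in wild type and 30.8 in mutant at 5.5 dpf, and at 0 and 59.0 at 7.5 dpf. The genes lower in the mutant were thus found on both lists, positive and negative. Of the 10 hepatocyte markers, most of them on these lists, 2 were past 2-fold lower at 5.5 dpf and 9 at 7.5 dpf, with medians of −0.70 and −1.68. The markers on neither list, fabp10a and hpda, were at −1.79 and −2.01 at 7.5 dpf. Lower levels in the mutant were thus not particular to acute phase genes.

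**Figure D4:**
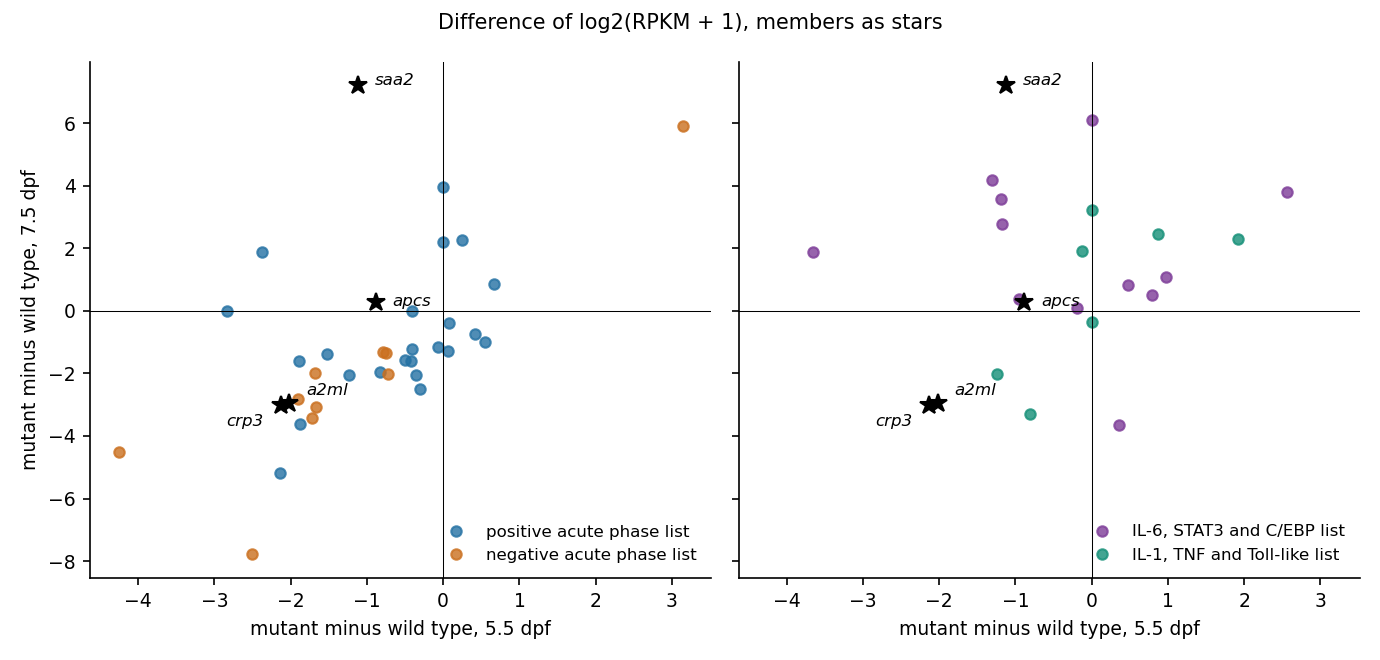
Difference of log2(RPKM + 1) between mutant and wild type at 5.5 dpf (x axis) and 7.5 dpf (y axis) for tested genes of the acute phase and signalling lists, with 1 point per gene and the members as stars. At 7.5 dpf a2ml and crp3 lie at −2.94 and −3.00, and saa2 lies at 7.22.

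Among genes of the signals that drive the acute phase response, more were past 2-fold higher than lower in the mutant at 7.5 dpf, as were more of all tested genes (40.0 against 23.1%). Several of those counted as higher, il11a, il11b, lifrb, tnfa and tnfrsf1b, reached a mean RPKM of at least 1 only with the mutant library at 7.5 dpf. The gene il11ra met the filter through the mutant libraries alone. At 5.5 dpf the gene counted as higher was il11ra on the interleukin-6 list and tnfrsf1b on the tumor necrosis factor list. The place of all these genes among the higher ones, and so part of the counts and medians below, followed from that filter. In the other direction, tlr5b, counted as lower at both stages, met it through the wild-type libraries alone. Of 12 tested genes of interleukin-6 family, STAT3 and C/EBP signalling, 1 was higher and 4 lower at 5.5 dpf, and 7 higher and 1 lower at 7.5 dpf, with medians of −0.10 and 1.47, beside 0.00 and 0.33 for all tested genes. Of the 26 symbols on this list, 13 had no ID, il6, il6r and il6st among them. The gene past 2-fold lower at 7.5 dpf was stat5a, at 12.9 RPKM in wild type and 0.115 in mutant (−3.64). At that stage cebpd was at 384.2 in wild type and 406.3 in mutant. The transcription factor gene stat3 stood at 2.40 RPKM in wild type and 0.378 in mutant at 5.5 dpf, and at 1.25 and 39.8 at 7.5 dpf, 31.9-fold higher in the older mutant. The receptor gene il11ra was at 0.0792 and 5.35 at 5.5 dpf, and at 0.0192 and 13.1 at 7.5 dpf. The C/EBP gene cebpb was 1.98-fold higher at 5.5 dpf (1.93 to 2.03) and 2.11-fold higher at 7.5 dpf (2.06 to 2.15), at 381.9 and 573.9 RPKM in the mutant.

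For interleukin-1, tumor necrosis factor and Toll-like receptor input, 1 of 7 tested genes was past 2-fold higher and 1 lower at 5.5 dpf, and 4 were higher and 2 lower at 7.5 dpf, with medians of 0.00 and 1.92. Of the 17 symbols on this list, 5 had no ID, il1b and il1rap among them. No gene of interleukin-1 or its receptor was thus among those tested. Of all tested genes, 28.0% were higher and 25.6% lower at 5.5 dpf, and 40.0 and 23.1% at 7.5 dpf. The tumor necrosis factor gene tnfb was at 23.9 RPKM in wild type and 44.6 in mutant at 5.5 dpf, and at 19.1 and 109.7 at 7.5 dpf, 5.74-fold higher (5.40 to 6.11). Its relative tnfa was at 8.24 RPKM in the mutant at 7.5 dpf and at 0 in the other 3 libraries. As given above, tnfa and tnfrsf1b were tested only because of that mutant library. The adaptor gene myd88, which carries Toll-like receptor signals, was 19.1-fold lower in the mutant at 7.5 dpf (14.1 to 26.5), at 0.977 against 18.6 RPKM. Summed macrophage and neutrophil markers were highest in that library, as given above, the neutrophil sum through ncf1, mmp13a and mmp9 alone. The part of these cells in these levels was not tested.

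Of the pathway lists that hold the members, the pentraxin list had 3 tested genes of 9 with an ID, namely apcs, crp3 and crp5, and the serum amyloid A and alpha-2-macroglobulin list had 3 of 5. The third gene on the latter was lrpap1, which encodes a chaperone of the receptors that clear alpha-2-macroglobulin. It stood at 5.83 RPKM in wild type and 16.9 in mutant at 5.5 dpf, and at 0 and 1.65 at 7.5 dpf, past 2-fold higher in the mutant at both stages, the opposite of a2ml.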

How the data were processed

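Hepatocytes were sequenced in 4 libraries, 1 per genotype and stage, and samples were grouped by their labels. The tools named in the submitters' processing notes are TopHat2 2.0.12 and Bowtie2 2.2.3, HTSeq 0.6.0, and DESeq 1.16.0. The sources used here do not give the genome build, the annotation or the use of strand. The authors deposited RPKM for 33737 genes. Per the file headers, the authors' 4 comparison tables hold normalized values, a fold change (a ratio), a log2 fold change, a p-value and an adjusted p-value. The normalized columns were read from their values as CPM as the authors deposited them, and 86618 of 86618 listed values (100.0%) were whole reads within 0.01, so read counts were recovered from the deposited CPM. The authors' deposited p-values were not used. The authors' deposited table marks a2ml, crp3 and saa2, and not apcs, in both mutant comparisons.

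From these, differences of log2(RPKM + 1) were taken for genes with a mean RPKM of at least 1 and read against 2-fold. With 1 library per group no p-value applies to a comparison. Ratios of reads have 95% exact (Clopper-Pearson, conditional) counting intervals, and 0 reads were bounded at 3 reads per library. Tests came from an additive fit of genotype and stage with limma 3.58.1 in R 4.3.3, adjusted by Benjamini-Hochberg over all tested genes, with edgeR 4.0.16 and DESeq2 1.42.0 on recovered reads as alternatives. Scripts were tested on simulated data. Symbols were matched for 21939 of 33737 IDs (65.0%), and saa2 was matched without regard to case. The members and lists were chosen with earlier results of these data known. Named list genes were the 3 with the highest mean RPKM and the 2 with the largest difference in each mutant comparison, of which the text gives a part. Alternatives were other pseudocounts, filters, scalings, read ratios, a 4-fold rule and, added after seeing the data, the authors' deposited log2 fold changes.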

Additional observations from a re-analysis of the deposited data

Results flagged for a closer look

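The difference between mutant and wild type had opposite signs at 5.5 and 7.5 dpf, beyond counting error at both stages, for 9 of the named genes. Named genes were chosen in part for large differences, and the share of all tested genes with such a change was not taken. The count is thus not a result about these genes as a group. The change between the stages was not tested, since each side was 1 library. Values below are the log2 difference at 7.5 dpf minus that at 5.5 dpf.

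Among the members, saa2 changed by 8.34, from −1.12 at 5.5 dpf to 7.22 at 7.5 dpf, and apcs by 1.17, from −0.88 to 0.29. The sign of apcs at 7.5 dpf turned under median-ratio scaling, to −0.14. Among signalling genes, stat3 changed by 5.49, the C/EBP gene cebpg by 5.53, cebpa by 1.33 and cebpd by 0.27, and the receptor gene tnfrsf1a by 2.05. The signs of cebpa and cebpd at 7.5 dpf also turned under median-ratio scaling, to −0.05 and −0.35. Among plasma protein genes, c3a.2 changed by 4.25, from −2.38 to 1.87, and fgg by −1.53, from 0.55 to −0.98.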

How the results depend on the processing

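Of the recomputed member differences, 73 stayed within counting error of the reported value, 38 moved with the same sign and 1 reversed, that of apcs in the mutant at 7.5 dpf (−0.14 under median-ratio scaling). For saa2, which had 0 reads in a library of each comparison, no counting error was computed and any change counted as a move. The 38 therefore include saa2 values not shown to lie beyond counting error. The 73 include those under no filter and under a mean RPKM of at least 10. These settings change only which genes are tested and cannot move a member's own difference, so the 73 overstate the stability. The difference of a2ml in the mutant ranged from −2.32 to −1.95 at 5.5 dpf and from −3.36 to −2.67 at 7.5 dpf, and that of crp3 from −2.43 to −2.03 and from −3.41 to −2.63. That of saa2 ranged from −5.77 to −0.30 at 5.5 dpf and from 4.93 to 12.77 at 7.5 dpf, with the ends given by a pseudocount of 5 and by the authors' deposited table.

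Counts past 2-fold moved by over 1.5 times in these cases. With a mean RPKM of at least 10, 4210 genes were tested in place of 11135. In the mutant against wild type 2007 were past 2-fold at 5.5 dpf (47.7%, against 53.6% reported) and 2576 at 7.5 dpf (61.2%, against 63.1%). Between stages 1861 were past it in wild type (44.2%, against 51.5%) and 2182 in mutant (51.8%, against 60.0%). Where both libraries had to have over 3 reads, the counts in the same order were 3504 of 7201 (48.7%), 3310 of 5871 (56.4%), 2909 of 6533 (44.5%) and 3366 of 6539 (51.5%). These counts are lower chiefly because fewer genes were tested. Over the same 11135 genes, 3558 (32.0%) were past 2-fold with a pseudocount of 5 at 5.5 dpf and 3285 (29.5%) between wild-type stages, and at 4-fold 3236 (29.1%) and 3259 (29.3%). Members past the rule between wild-type stages were 1 with a pseudocount of 5, 4 under median-ratio scaling, 1 with over 3 reads and 1 at 4-fold. Under median-ratio scaling 2364 of all 11135 genes were past 2-fold higher there and 3455 lower. Between mutant stages 2 members were past the rule at 4-fold, for which the share of all genes is not given here.

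In the fit, genes called for genotype numbered 0 with edgeR, 815 with DESeq2, 50 with a pseudocount of 0.1, 122 with no filter (of 17920 tested) and 54 with a mean of at least 10 (of 4210). Members called were 0 with edgeR, a pseudocount of 0.1 and a mean of at least 10, and 2 with a pseudocount of 5, no filter and median-ratio scaling, where crp3 joined a2ml. All genes called for genotype numbered 239 with a pseudocount of 5 and 246 under median-ratio scaling, of 11135 tested. For stage, genes numbered 0 with edgeR, 532 with DESeq2, 11 with a pseudocount of 0.1, 15 with no filter and 0 with a mean of at least 10, and members 0 with edgeR and with a mean of at least 10. The cause of the moves in the fit was not tested. No library could be left out in turn, since each group had 1 and the fit 1 residual degree of freedom. No paired analysis was possible because each group has 1 library.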

Other observations

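The level pattern of saa2, 147.9 RPKM or more in the mutant at 7.5 dpf and 1.17 or less in each other library, was met by 1 other of the 11135 tested genes. It was dkk1b, a Wnt inhibitor gene at 165.6 RPKM in that library, chosen after its values were seen. Both limits are the values of saa2 itself, so the small count follows in part from the rule. The genes il11a, isg15 and UCMA, at 0 in each other library, fell short of it by level alone, at 67.4, 75.8 and 62.4 RPKM.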
